A study of Mus musculus with 12 samples.

Results

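The 8 libraries of cells without a polycystin, 4 from Pkd1-/- and 4 from Pkd2-/- cells, were set together against the 4 libraries of wild-type cells. All were mIMCD3 cells, an SV40-immortalized epithelial line from the inner medullary collecting duct of the mouse, and their RNA was taken 4 days after the dishes reached full confluency in medium with serum. The Pkd1-/- line is 1 clone in which CRISPR nucleases removed nearly the whole Pkd1 gene (chromosome 17, GRCm38, 24550055 to 24594963 on one allele and 24550106 to 24594903 on the other). The Pkd2-/- line is 1 clone in which TALE nucleases removed chromosome 5 from 104478281 to 104490878, the middle exons of Pkd2. Wild-type cells were the parental line and each knockout was 1 clone, so an effect of losing a polycystin and a difference that arose with cloning cannot be told apart. The 4 libraries of a genotype are dishes of 1 line, and p-values measure the spread between dishes. A gene was tested where its normalized counts averaged 10 or more over the 12 libraries, 13703 in all. The genes described are the 1667 of these (12.2%) whose 8 knockout values all lay above, or all below, the 4 wild-type values. They are called separated genes here, and the separation itself is a description with no test.

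Polycystin-1, the product of Pkd1, is a large membrane protein that forms a complex with TRPP2, the cation channel encoded by Pkd2, on the primary cilium and other membranes of tubule cells. Loss of either causes autosomal dominant polycystic kidney disease, in which tubules widen into cysts that secrete fluid and whose epithelium divides more. Cyclic AMP, calcium, planar polarity, matrix turnover and metabolism have all been studied as parts of the disease.

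The normalized totals were 25966273 to 28027792 per library, from an estimated 23200000 to 30300000 reads assigned to genes, and no pair of libraries held identical values. Pkd1 checked its labels with 682, 688, 883 and 876 normalized counts in wild-type, 40, 49, 48 and 30 in Pkd1-/- and 1057, 1216, 1071 and 1492 in Pkd2-/- dishes. Pkd2, counted over the whole gene, had 3855 to 4135 normalized counts in Pkd2-/- and 3438 to 4467 in wild-type dishes, and since reads outside the deleted exons still count, this value does not check that label. The 7 general epithelial markers were all present, among them Cdh1 and Epcam, at 13291 to 16508 and 16445 to 23947 normalized counts over the libraries. Of 7 principal cell markers, 3 were tested (Scnn1g, Hsd11b2 and Gata3), and the vasopressin-regulated water channel Aqp2 was at 0 in all 12 libraries. Markers of endothelium summed to at most 9 normalized counts per library and those of leukocytes to 55 to 74, nearly all Cd68. In bulk RNA, fewer cells that express a gene and less RNA per cell cannot be told apart.

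The pooled contrast, which gave each knockout equal weight, asked what the 2 genotypes share. Fitted with limma on log2(normalized count + 1), it called 5817 of 13703 genes at an adjusted p below 0.05, of which 2874 were higher (21.0% of genes tested) and 2943 lower (21.5%). In 4159 of them (71.5%) the 8 knockout libraries did not lie on 1 side of wild-type, and in 2435 of these only the Pkd2-/- libraries stood apart from wild-type, in 993 only the Pkd1-/- libraries, and in 417 both did but on opposite sides. Separation was the stricter description: 712 genes were higher (5.2% of genes tested) and 955 lower (6.97%) in all 8 knockout dishes, and 708 and 950 of them also passed the pooled test. Below, a gene "rose" or "fell" where both held. By this definition the direction is the same in all 8 knockout dishes, so that count adds no support of its own. With the 8 knockout libraries fitted as 1 group, so that the distance between the knockouts entered the spread, 859 genes were called higher and 917 lower.

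Most shared differences were small. The median was 0.35 on the log2 scale (1.27-fold) among the separated genes that were higher and -0.52 (1.44-fold) among those that were lower, beside -0.01 over all genes tested. At the limit of the rule, Psmb7 was inside, with 4388 to 4846 normalized counts in wild-type and 4847 to 6100 in the knockouts, and Dis3 was outside, with 1964 to 2085 and 2085 to 2371. Large differences ran mainly downward. A pooled change of at least 2-fold was reached by 76 of the genes that rose (0.555% of genes tested) and by 293 of those that fell (2.14%), so 79.4% of the 369 genes were lower. At least 4-fold in each knockout, 12 genes rose and 77 fell. The numbers past a pooled 2-fold change depended on the minimum mean. They were 92 higher and 395 lower where no minimum was set, and 66 and 190 at a minimum of 50.

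Wild-type was the genotype that stood apart least often. It lay above or below all 8 other libraries in 1667 genes, against 2729 (19.9%) for Pkd1-/- and 4725 (34.5%) for Pkd2-/- cells. The spread between dishes was alike, with a median SD, as a share of the mean, of 7.45% for wild-type dishes, 6.6% for Pkd1-/- dishes and 7.95% for Pkd2-/- dishes. With 3 normalized counts as the limit of a near-absent transcript, 16 genes were at or under it in all 8 knockout dishes and above it in every wild-type dish. The like counts of genes above it in 1 knockout alone were 15 for Pkd1-/- and 0 for Pkd2-/- dishes. At or under it were 1 gene in wild-type dishes alone, 10 in Pkd1-/- dishes alone and 124 in Pkd2-/- dishes alone. The 2 kinds of count are not alike, since the minimum mean of 10 admits them at different levels. With the other dishes at 0, it needs a mean of 30 over 4 wild-type dishes but 15 over 8 knockout dishes.

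**Figure D1:**
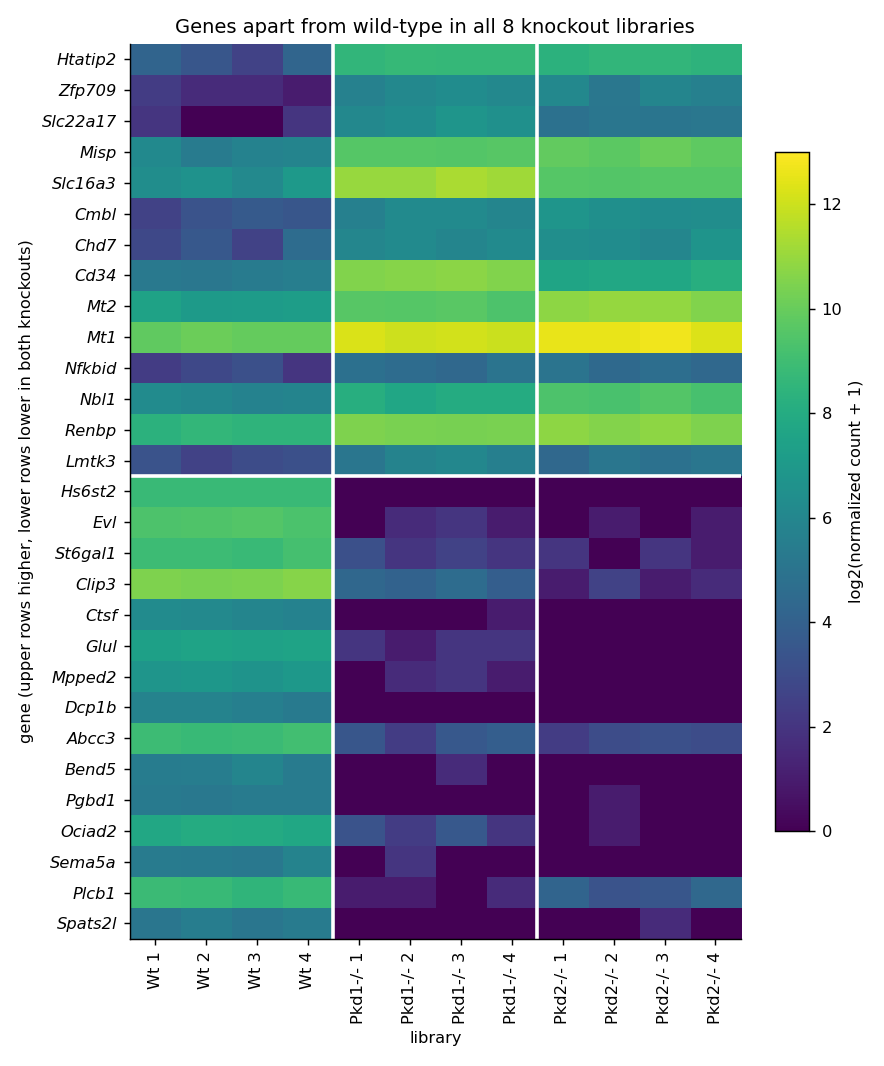
Heat map of log2(normalized count + 1) for protein-coding genes among the 15 with the largest rise and the 15 with the largest fall, ordered by the knockout with the smaller difference, with 1 column per library and white lines between genotypes and directions. Each row changes colour at the border of wild-type, and Hs6st2 and Dcp1b are at 0 in all 8 knockout libraries.

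The 16 genes that were near 0 in every knockout dish had wild-type means from 31.2 to 680 normalized counts. The minimum mean of 10 sets the lower end, since with the knockouts at 0 it needs a wild-type mean of 30. It thereby also limits the smallest fold given below. Evl, an Ena/VASP protein that promotes actin filament growth at the cell edge, had 671, 682, 736 and 631 normalized counts in wild-type, 0, 2, 3 and 1 in Pkd1-/- and 0, 1, 0 and 1 in Pkd2-/- dishes. Against a floor of 3 counts per library it was at least 227-fold lower. Hs6st2, which adds 6-O-sulfate to heparan sulfate, had 452, 447, 452 and 442 in wild-type, 0, 0, 0 and 0 in Pkd1-/- and 0, 0, 0 and 0 in Pkd2-/- dishes, at least 149-fold lower, and no dish of either knockout gave a count. Glul, glutamine synthetase, had 164, 188, 172 and 182 in wild-type, 3, 1, 3 and 3 in Pkd1-/- and 0, 0, 0 and 0 in Pkd2-/- dishes, at least 58.8-fold lower. These 3 genes lay on chromosomes 12, X and 1. The rest were Mpped2, a metallophosphoesterase, Ctsf, a lysosomal cathepsin, Dcp1b, a subunit of the mRNA decapping complex, Sema5a, a semaphorin, Neil2, a DNA glycosylase, Magohb, an exon junction protein, and Bend5, Zfp109, Pgbd1, Spats2l, Tmem64, Degs2 and A230050P20Rik, each between 31.2 and 111 normalized counts in wild-type and at least 10.4-fold lower. Degs2 overlaps the end of Evl on the opposite strand, and how strand was treated in counting is not given in the sources used here, so its 22 to 46 wild-type counts and those of Evl cannot be told apart. The converse gene was Slc22a17, the receptor for lipocalin-2, with 3, 0, 0 and 3 in wild-type, 67, 78, 107 and 91 in Pkd1-/- and 28, 33, 32 and 35 in Pkd2-/- dishes.

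The 250 bases before the RefSeq start of the first pair are printed because these genes had the highest wild-type levels among the 16 (build GRCm38.p6), with each CG, the dinucleotide that DNA methylation acts on, in capitals. Evl is on the + strand at chr12:108554470-108554719 and Hs6st2 on the - strand at chrX:51681603-51681852.
Evl: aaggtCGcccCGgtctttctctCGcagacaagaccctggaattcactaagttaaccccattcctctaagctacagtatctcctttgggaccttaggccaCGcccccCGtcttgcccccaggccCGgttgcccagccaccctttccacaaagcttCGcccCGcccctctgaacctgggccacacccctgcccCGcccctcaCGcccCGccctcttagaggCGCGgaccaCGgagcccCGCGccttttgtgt
Hs6st2: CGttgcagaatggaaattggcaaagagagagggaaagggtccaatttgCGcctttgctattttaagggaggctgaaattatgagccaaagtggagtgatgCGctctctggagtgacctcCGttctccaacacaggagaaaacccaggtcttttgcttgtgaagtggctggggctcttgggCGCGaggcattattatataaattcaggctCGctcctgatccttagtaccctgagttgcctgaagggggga
The Evl stretch holds 16 CGs and that of Hs6st2 holds 7, where the median over 32851 RefSeq promoters of the same length is 6 and the 10th to 90th percentiles run from 1 to 25. RefSeq gives each gene a second start further along the gene, and the stretches before those hold 2 CGs in Evl and 26 in Hs6st2. No methylation was measured in these files. The promoter table covered 69.9% of the genes tested, too few for a comparison of base composition between groups of genes.

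The separated genes were unevenly spread over the chromosomes. On chromosome 19, 126 of 482 genes tested (26.1%) were higher in all 8 knockout dishes, and on chromosome 2, 136 of 1058 (12.9%), against 1.45 to 6.85% on each of the 18 others. These 2 chromosomes carried 11.2% of the genes tested and 262 of the 712 separated genes that were higher (36.8%). Lower genes were most frequent on chromosome 5, with 125 of 923 (13.5%), chromosome 3, with 91 of 776 (11.7%), and chromosome 6, with 73 of 690 (10.6%), against 3.12 to 9.09% on each of the others. The shift reached whole chromosomes. The median gene of chromosome 19 was 0.16 to 0.19 higher than the wild-type mean (log2) in the 4 Pkd1-/- dishes and 0.22 to 0.31 higher in the 4 Pkd2-/- dishes, while the wild-type dishes lay between -0.02 and 0.01. On chromosome 2 it was 0.04 to 0.06 higher in Pkd1-/- and 0.33 to 0.34 higher in Pkd2-/- dishes, and the median gene of chromosome 5 was lower, at -0.18 to -0.15 in Pkd1-/- and -0.05 to -0.02 in Pkd2-/- dishes. DNA copy number was not measured in the files analysed, and the cause of these shifts was not tested.

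**Figure D2:**
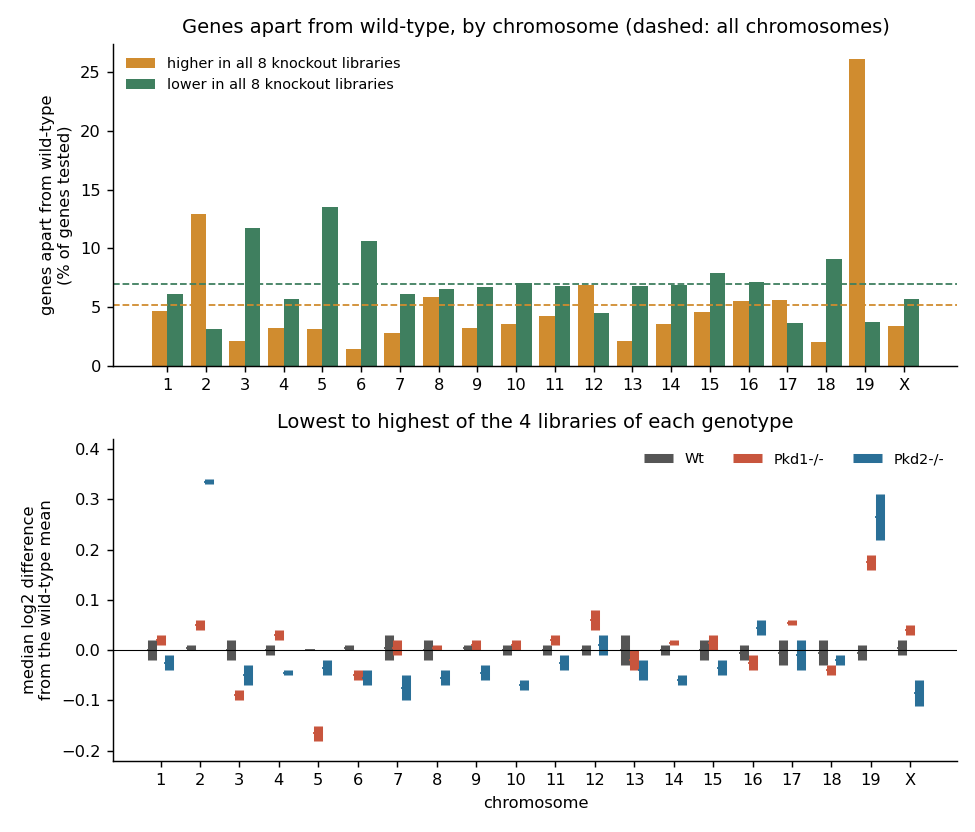
Upper plot, share of the genes tested on each chromosome that lay above (orange) or below (green) all wild-type libraries in all 8 knockout libraries, with dashed lines for all chromosomes. Lower plot, range over the 4 libraries of each genotype of the median log2 difference from the wild-type mean, where both knockouts lie above wild-type on chromosome 19 and Pkd2-/- lies at 0.33 to 0.34 on chromosome 2.

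When each library was centred on the running median of 101 neighbouring genes, 604 genes were separated and higher and 923 lower, and chromosome 19 held 27 of the former in place of 126. Of the separated genes, 58.6% of those that were higher and 77.9% of those that were lower remained so. The large differences were hardly touched: 74 of the 76 and 287 of the 293 genes past 2-fold stayed separated, and 13 of the 76 lay on chromosomes 2 or 19. Before that centring, separated neighbours formed 29 runs of 3 or more adjacent tested genes, 11 higher and 18 lower. Of these, 5 of the higher runs lay on chromosome 19 and 5 of the lower runs on chromosome 5, which were shifted as whole chromosomes. How many runs such shifts alone would give was not tested. One run on chromosome 9 was Casp4, Casp12 and Pdgfd, 2 inflammatory caspases and a platelet-derived growth factor, at pooled differences of -2.39, -3.69 and -3.84. Another, on chromosome 5, held Tlr1 and Tlr6 with Fam114a1, Klhl5 and Wdr19. A run of Ifit3, Ifit1bl1 and Ifit3b, interferon-induced genes whose near-identical sequences can share reads, fell on chromosome 19 at -0.88 to -1.24.

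Among the genes that rose most, Htatip2, a short-chain dehydrogenase-like protein with pro-apoptotic activity, had 17, 10, 5 and 18 normalized counts in wild-type, 382, 423, 397 and 400 in Pkd1-/- and 327, 369, 371 and 342 in Pkd2-/- dishes. It rose by 4.94 ± 0.22 on the log2 scale (SE, limma, adjusted p = 2.22e-11), and the lowest knockout dish was above 300 where the highest wild-type dish was 18. Slc16a3, the lactate and proton exporter MCT4, had 82, 98, 69 and 124 in wild-type, 2032, 2023, 2638 and 2284 in Pkd1-/- and 753, 733, 756 and 747 in Pkd2-/- dishes. Its rise of 3.81 ± 0.12 was larger in Pkd1-/- than in Pkd2-/- dishes (adjusted p = 2.61e-08 for the difference between the knockouts, limma). Cd34, a sialomucin of progenitor and endothelial cells, had 37, 35, 41 and 47 in wild-type, 1475, 1580, 1680 and 1510 in Pkd1-/- and 191, 218, 217 and 284 in Pkd2-/- dishes, with log2 differences of 5.26 in Pkd1-/- and 2.47 in Pkd2-/- cells. Other endothelial markers stayed near 0, with the sum of Pecam1, Cdh5, Kdr, Tek and Vwf between 0 and 9 in the knockout dishes. Misp, which positions the mitotic spindle, rose by 3.91 ± 0.10, Nbl1, a secreted antagonist of bone morphogenetic proteins, by 2.67 ± 0.11, and Renbp, an N-acetylglucosamine epimerase that binds renin, by 2.08 ± 0.06. Zfp709, Chd7, Cmbl, Nfkbid and Lmtk3 rose from wild-type means under 20 normalized counts, by 2.09 to 4.25.

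Both metallothioneins, small proteins that bind zinc and copper, rose side by side on chromosome 8. Mt1 had 896, 1085, 974 and 963 normalized counts in wild-type, 4850, 4077, 4420 and 3968 in Pkd1-/- and 6119, 6148, 6691 and 5126 in Pkd2-/- dishes. Mt2 had 179, 134, 138 and 152 in wild-type, 794, 773, 803 and 666 in Pkd1-/- and 1793, 1942, 1890 and 1500 in Pkd2-/- dishes. The differences were 2.38 ± 0.07 and 2.94 ± 0.09, and both were larger in Pkd2-/- than in Pkd1-/- cells (adjusted p = 7.85e-05 and 1.58e-08, limma). The stretches before their RefSeq starts are shown because metallothionein genes are textbook targets of the zinc-sensing factor Mtf1, with each match to TGCACNC or TGCGCNC, the core of its binding element on either strand, in capitals. Mt2 lies on the + strand at chr8:94172368-94172617 and Mt1 on the + strand at chr8:94178839-94179088.
Mt2: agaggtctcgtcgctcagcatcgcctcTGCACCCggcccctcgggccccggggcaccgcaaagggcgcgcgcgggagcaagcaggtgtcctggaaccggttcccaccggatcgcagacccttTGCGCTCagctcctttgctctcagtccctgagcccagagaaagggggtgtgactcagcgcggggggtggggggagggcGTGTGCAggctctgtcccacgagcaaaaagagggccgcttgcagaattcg
Mt1: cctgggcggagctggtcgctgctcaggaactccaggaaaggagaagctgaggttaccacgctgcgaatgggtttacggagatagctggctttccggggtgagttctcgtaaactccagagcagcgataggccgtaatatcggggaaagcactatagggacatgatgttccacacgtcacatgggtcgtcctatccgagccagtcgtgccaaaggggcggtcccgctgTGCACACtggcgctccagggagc
Mt2 held 3 matches and Mt1 held 1 in these 250 bases, while 21.4% of all RefSeq promoters held at least 1 and 1.26% at least 3. The RefSeq start used for Mt2 was not found in a GENCODE transcript, and its stretch ends at 94172617, before the GENCODE start at 94172664. The start used for Mt1 was found in one. Bases outside these stretches were not searched, so the matches are not a full count for either promoter. A match is a description and not a bound site.

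Of the genes that fell most, St6gal1, which caps glycoproteins with sialic acid, had 476, 485, 454 and 571 normalized counts in wild-type, 8, 3, 5 and 3 in Pkd1-/- and 3, 0, 3 and 1 in Pkd2-/- dishes, and fell by 7.11 ± 0.34 (limma, adjusted p = 5.36e-11). Clip3, a linker of membranes to microtubules, had 1450, 1336, 1371 and 1616 in wild-type, 19, 16, 23 and 14 in Pkd1-/- and 1, 5, 1 and 2 in Pkd2-/- dishes. Plcb1, a phospholipase C that Gq-coupled receptors activate, had 464, 429, 360 and 439 in wild-type, 1, 1, 0 and 2 in Pkd1-/- and 17, 9, 10 and 20 in Pkd2-/- dishes. The 3 genes were below 25 in every knockout dish and above 350 in every wild-type dish. Abcc3, an exporter of organic anions and conjugates, fell by 5.80 ± 0.25, and Ociad2, an endosomal and mitochondrial membrane protein, fell by 6.35 ± 0.32. Plcb1 was lower in Pkd1-/- than in Pkd2-/- cells, and Clip3 was lower in Pkd2-/- cells (adjusted p = 5.3e-07 and 4.03e-07 for the difference between the knockouts, limma).

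**Figure D3:**
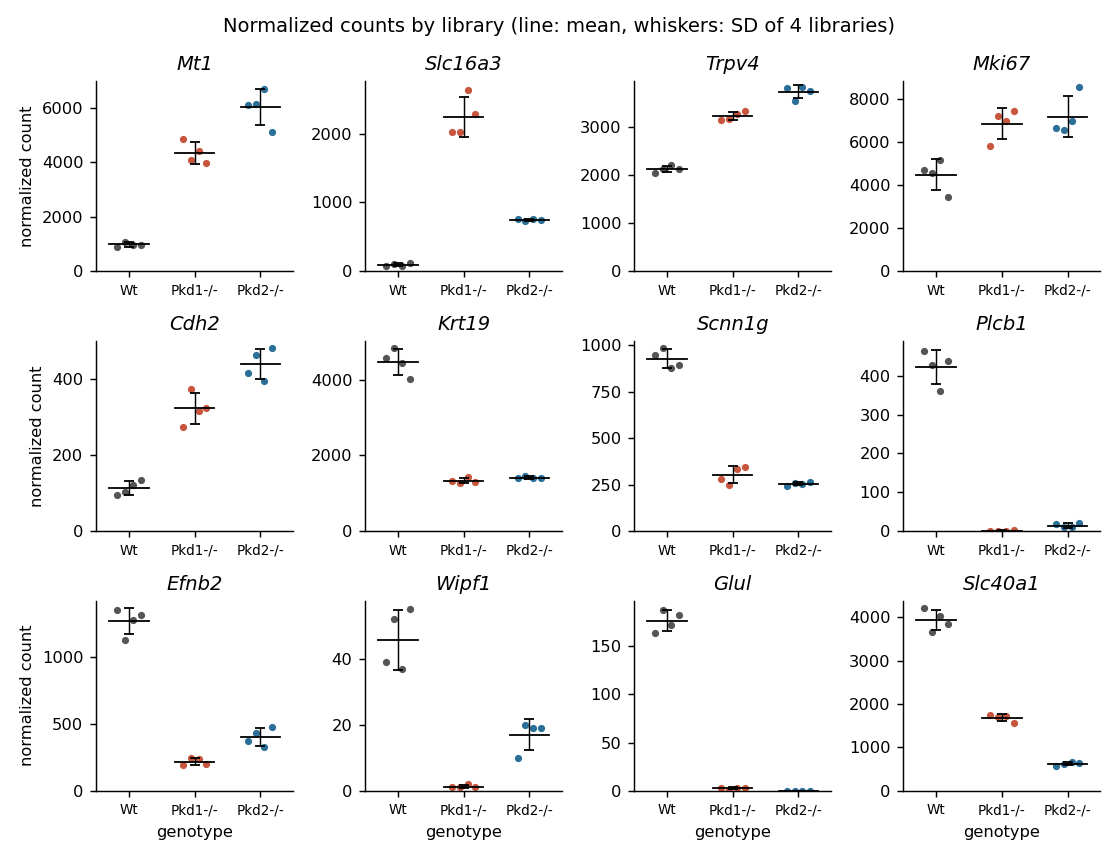
Normalized counts of 12 genes in each of the 12 libraries (points), with the mean (line) and SD (whiskers) of the 4 dishes of a genotype, each axis starting at 0. All 12 are separated genes, so by definition knockout and wild-type dishes do not overlap in any panel. The knockouts do not overlap with each other in Slc16a3 and Slc40a1, for example.

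To see what the separated genes do, 55 lists of functional groups were counted against the share of all genes, 5.2% higher and 6.97% lower. The lists were written with earlier results of these data known, so the shares and their order are descriptions and were not tested. Among lists with at least 20 members tested, members fell most often in progenitor surface and adhesion glycoproteins (12 of 36) and guidance genes (12 of 48). Next were phospholipase C, calcium and protein kinase C genes (12 of 54) and secreted matrix proteins (6 of 27). Developmental transcription factors (11 of 52) and the list of p53 targets and apoptosis (12 of 58) followed. Members rose most often in amino acid and one-carbon metabolism (15 of 57), regulators of epithelial-mesenchymal transition (4 of 21), proteasome subunits (7 of 37), cyclic AMP signalling (6 of 33) and the cell cycle (16 of 91). Cytosolic ribosomal proteins and the nuclear-encoded respiratory chain sat at the other end, with 2 and 0 of 84 and 0 and 2 of 91 that rose and fell, and none of the 13 mitochondrially encoded genes was separated.

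**Figure D4:**
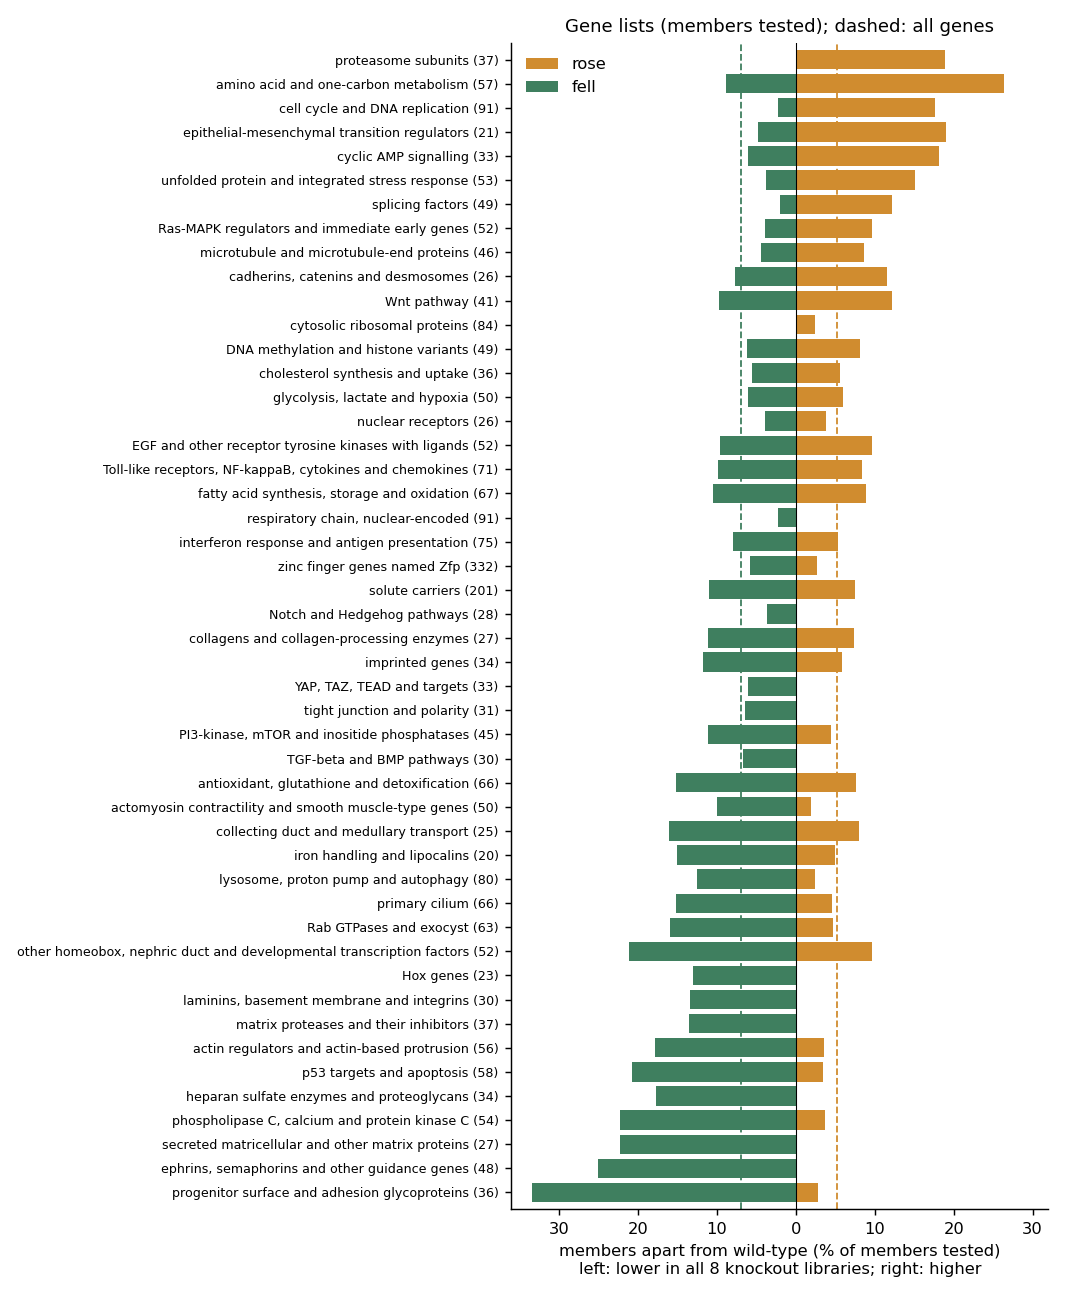
Share of the tested members of each gene list that rose (orange, right) or fell (green, left) in both knockouts, for the lists with at least 20 members tested, with the number tested in parentheses and dashed lines for all genes. Progenitor surface and adhesion glycoproteins and guidance genes extend furthest to the left, and amino acid metabolism furthest to the right. Secreted matrix proteins and phospholipase C, calcium and protein kinase C genes, with equal shares, come next on the left.

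Of 56 tested regulators of actin and its protrusions, 10 fell and 2 rose (17.9% and 3.57%), with a median pooled difference of -0.04 beside -0.01 over all genes. Evl was one of them, and Wipf1, a partner of WASP in actin nucleation, had 39, 52, 37 and 55 normalized counts in wild-type, 1, 1, 2 and 1 in Pkd1-/- and 10, 20, 19 and 19 in Pkd2-/- dishes. Pfn2, Pls1, Lcp1, Arpc3, Enah, Palld, Msn and Cfl2 also fell, and Fmnl3, a formin, and Cfl1, which severs filaments, rose by 0.41 and 0.24. In actomyosin, 5 of 50 fell: Mylk, the kinase that activates myosin II, by 1.98 ± 0.09, Acta1, a skeletal actin, by 1.22 ± 0.16, and Myl9, Cald1 and Myl12a. Only Tagln2 rose in that list, by 0.37. Among 46 microtubule genes, 4 rose (8.7%) and 2 fell (4.35%). Mapt, which encodes tau, and Map1b rose by 2.23 ± 0.18 and 1.38 ± 0.10, with Ckap5 and Mapre1, while Clip3 and Dclk1, a doublecortin-like kinase, fell.

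The primary cilium list held 66 tested genes, of which 10 fell and 3 rose, all by less than 2-fold. Bbs12, a chaperonin-like protein needed to build the BBSome, had 1009, 928, 1005 and 1028 normalized counts in wild-type, 692, 708, 731 and 708 in Pkd1-/- and 618, 560, 566 and 627 in Pkd2-/- dishes, and fell by 0.61 ± 0.05. Tctn1, Tctn2 and Tmem231 of the transition zone, Ift81, Ift88, Ift172 and Wdr19 of the transport trains, and Arl6 and Dync2li1 fell as well. Cep290, which anchors the transition zone, rose by 0.83 ± 0.09 (259 to 332 in wild-type and 407 to 714 in the knockout dishes), and Ift46 rose as well. The median of the list was -0.07. Centred on neighbouring genes, 6 of the members fell and 2 rose, and Tctn1, Tctn2, Ift81 and Wdr19 lie on chromosome 5. Of 17 genes in the list of polycystin and other cystic disease genes, Dnajb11 and Ganab, which fold and trim glycoproteins in the endoplasmic reticulum, rose by 0.28 and 0.26, and neither did so after that centring.

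Among adhesion and filament genes, Cdh1, E-cadherin, had 13291 to 13995 normalized counts in wild-type and 13319 to 16508 in the knockouts, and the ranges overlapped. Krt19, a keratin of simple epithelia, had 4579, 4850, 4429 and 4030 normalized counts in wild-type, 1314, 1278, 1418 and 1306 in Pkd1-/- and 1392, 1456, 1394 and 1395 in Pkd2-/- dishes. It fell by 1.71 ± 0.05 (limma, adjusted p = 9.05e-14), and the knockouts did not differ at the threshold (adjusted p = 0.196, difference 0.09). Synm, Krt15 and Krt7 also fell and Lmnb2, a nuclear lamin, rose by 0.22, out of 14 intermediate filament genes. Cdh2, N-cadherin, rose by 1.73 ± 0.10, from 95 to 135 normalized counts in wild-type to 275 to 482 in the knockouts. Zeb2, a repressor of E-cadherin, had 84, 67, 56 and 73 in wild-type, 144, 159, 162 and 121 in Pkd1-/- and 85, 111, 118 and 107 in Pkd2-/- dishes, so that the margin between the highest wild-type and the lowest knockout dish was 1 count. Klf5 and Foxc1 rose and Ovol2, an epithelial repressor of Zeb genes, fell by 0.73 in the same list of 21. Of 31 tight junction and polarity genes, Llgl2, a basolateral polarity protein, and Marveld3 fell by 0.56 and 0.35 and none rose.

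Of 25 transport genes of the collecting duct and medulla, 4 fell and 2 rose, shares above the 6.97% and 5.2% of all genes. Scnn1g, the gamma subunit of the epithelial sodium channel, had 951, 988, 876 and 896 normalized counts in wild-type, 282, 249, 333 and 347 in Pkd1-/- and 243, 257, 254 and 265 in Pkd2-/- dishes. Cftr, the chloride channel of fluid secretion, had 46, 34, 23 and 31 in wild-type, 6, 0, 0 and 0 in Pkd1-/- and 1, 0, 0 and 0 in Pkd2-/- dishes, low in wild-type and at 0 in most knockout dishes. Kcnj16, a basolateral potassium channel subunit, fell by 2.00 ± 0.07, far more in Pkd1-/- (-3.27) than in Pkd2-/- cells (-0.73), and Akr1b3, aldose reductase, fell too. Aqp1, a water channel of the proximal tubule and thin limb, rose by 0.77 ± 0.07, with 1.32 in Pkd1-/- and 0.22 in Pkd2-/- cells. Atp1b1, a sodium pump subunit, rose by 0.19 ± 0.03. Of 201 solute carriers, 15 rose and 22 fell. Slc40a1, ferroportin, the only known iron exporter of mammalian cells, had 4205, 3668, 4031 and 3844 normalized counts in wild-type, 1756, 1694, 1718 and 1564 in Pkd1-/- and 575, 624, 654 and 640 in Pkd2-/- dishes. Hfe and Hmox1 of the iron list fell with it.

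All 6 separated members of the list of secreted matrix proteins were lower: Fstl1, Mfap2, Spp1, Fbln5, Ltbp4 and Fst, by 1.09 to 4.52, and the median of its 27 members was -0.23 in Pkd1-/- and -0.99 in Pkd2-/- cells. Mfap2, a microfibril protein, had 38, 33, 48 and 29 normalized counts in wild-type, 1, 2, 5 and 1 in Pkd1-/- and 5, 3, 4 and 6 in Pkd2-/- dishes. The type IV collagens of basement membrane, Col4a1 and Col4a2, whose annotations overlap on opposite strands, fell by 4.29 ± 0.38 and 2.05 ± 0.20. Col4a2 kept 31 to 55 normalized counts in Pkd2-/- and 5 to 11 in Pkd1-/- dishes, against 68 to 94 in wild-type. Nid2, a basement membrane linker, Itgb3, Fras1 and Itgb6 fell among 30 laminin, basement membrane and integrin genes, with none that rose. Among matrix proteases and inhibitors, Mmp2, Serpinb9, Timp2, Mmp11 and Ctsl fell, 5 of 37. Pcolce and P3h1, which process procollagen, rose by 1.05 and 0.91. Besides Hs6st2, the heparan sulfate genes Chst7, Hs3st6, Gpc4, Sdc2 and Ext1 fell, 6 of 34.

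In the list of ephrins, semaphorins and other guidance genes, which steer cells, 12 of 48 fell (25.0%), none rose, and the other members did neither. The median of the list was -0.11 in Pkd1-/- and -0.65 in Pkd2-/- cells, and -0.20 in the pooled contrast. Efnb2, ephrin-B2, had 1348, 1129, 1278 and 1309 normalized counts in wild-type, 189, 243, 236 and 197 in Pkd1-/- and 372, 433, 323 and 474 in Pkd2-/- dishes. Its difference was larger in Pkd1-/- dishes, -2.55 against -1.67 in Pkd2-/- dishes (adjusted p = 3.92e-06 between the knockouts, limma). Sema5a was near 0 in the knockouts, and Plxnb1, Epha4, Ntn4, Sema6c, Sema4f, Sema3a, Sema4g, Efna1, Efna4 and Sema4c made up the rest. In the list of progenitor surface and adhesion glycoproteins 12 of 36 members fell, with medians of -0.19 in Pkd1-/- and -0.51 in Pkd2-/- cells. Cd34 was its single member that rose. Tspan7, a tetraspanin, had 62, 62, 42 and 46 in wild-type, 2, 1, 8 and 3 in Pkd1-/- and 4, 6, 4 and 10 in Pkd2-/- dishes, and Igsf3, an immunoglobulin-like surface protein, fell by 1.70 ± 0.17. Nrp1 and Nrp2, receptors for semaphorins and vascular growth factors, rose, as did the growth factors Pdgfa and Fgf1, whereas Pdgfd, Fgf5, Fgfr3, Fgfrl1 and Csf1r fell in the list of 52 receptor tyrosine kinases and ligands.

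Of 54 genes of phospholipase C, calcium and protein kinase C, 12 fell and 2 rose. Plcg2, which immune receptors and growth factor receptors activate, had 109 to 140 in wild-type and 31 to 63 in the knockout dishes, and fell by log2 differences of -1.64 in Pkd1-/- and -1.35 in Pkd2-/- cells. Plcd1, Prkca, Prkch, Prkd2, Nfatc4, Trpc1, Orai3, Trpm4, Camk1 and Camkk2 fell by less than 2-fold. Trpv4, a calcium channel known to pair with TRPP2, had 2052, 2129, 2207 and 2135 normalized counts in wild-type, 3142, 3170, 3262 and 3342 in Pkd1-/- and 3818, 3534, 3823 and 3742 in Pkd2-/- dishes, and rose by 0.70 ± 0.04 (limma, adjusted p = 1.79e-10). Stim1, the calcium sensor of the endoplasmic reticulum, rose by 0.18. In cyclic AMP signalling, 6 of 33 rose and 2 fell. Pde4d, a phosphodiesterase that breaks down cyclic AMP, had 113, 82, 101 and 112 in wild-type, 378, 420, 408 and 404 in Pkd1-/- and 172, 248, 217 and 219 in Pkd2-/- dishes, and Pde4a rose by 1.55 ± 0.12, with 0.53 in Pkd1-/- and 2.57 in Pkd2-/- cells. Gnas, Atf1, Pkig and Prkar2a rose as well, and Adcy1, an adenylyl cyclase, and Pkia, the protein kinase inhibitor alpha, fell by 2.78 ± 0.38 and 1.40 ± 0.08. Gnas lies on chromosome 2, and with neighbours centred 4 members rose.

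Among 41 Wnt genes, 5 rose (12.2%) and 4 fell (9.76%). Tcf7, a nuclear effector, and Wnt4, a ligand of nephron formation, rose by 0.81 and 0.55, with Porcn, Dvl1 and Dvl3, and Fzd8, Tcf7l2, Fzd1 and Wnt7b fell. Jag1, a Notch ligand, was the single separated gene of 28 in the Notch and Hedgehog list, with 214, 152, 193 and 238 normalized counts in wild-type, 118, 125, 124 and 147 in Pkd1-/- and 4, 1, 0 and 1 in Pkd2-/- dishes. It was at 0 to 4 in Pkd2-/- dishes and above 100 in every other. Tgfb2 fell by 2.56 ± 0.17 and Bmp3 fell by 3.47 ± 0.31, out of 30 genes of their pathways, and Vgll4 and Wwtr1, which encodes the transcriptional coactivator TAZ, by 0.26 and 0.26 out of 33. None rose in the Notch and Hedgehog, TGF-beta and BMP, and YAP lists, and the shares that fell, 3.57%, 6.67% and 6.06%, were below the 6.97% of all genes. In the Ras-MAPK list, Etv5, Fosl1, Spred1, Spred2 and Rasa3 rose and Map3k5 and Dusp14 fell, out of 52. The PI3-kinase subunits Pik3cg and Pik3r1 fell with Cblb, Pik3ip1 and Sesn1, and Rps6kb2 and Ddit4 rose.

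Of 52 homeobox and other developmental transcription factors, 11 fell (21.2%) and 5 rose (9.62%), while their median of 0.03 was close to that of all genes. Foxp2, a forkhead repressor, had 138, 76, 78 and 96 normalized counts in wild-type, 29, 4, 8 and 23 in Pkd1-/- and 2, 0, 0 and 0 in Pkd2-/- dishes. Dlx5, a homeobox gene, was at 0 in the Pkd2-/- dishes and at 13 to 20 in the Pkd1-/- dishes, against 66 to 109 in wild-type. Shox2, Sox13, Sox12 and Foxc1 were among those that rose. The Hox genes Hoxb13, Hoxc9 and Hoxb5 fell out of 23, and none rose. Nr4a2, an immediate early nuclear receptor, rose by 1.45 ± 0.15, with 1 Pkd2-/- dish at 2788 and the others at 1179 to 1373. Of 332 genes named Zfp, 9 rose and 19 fell (2.71% and 5.72%), below the shares of all genes in both directions. In the list of DNA methylation and histone variants, 4 of 49 rose (8.16%) and 3 fell (6.12%), near the 5.2% and 6.97% of all genes. The DNA methyltransferases Dnmt1 and Dnmt3b rose by 0.30 and 0.39, with Smarca4 and Hdac4. Tet1, which oxidizes methylcytosine, and H2afy2, a macroH2A histone, fell by 1.08 ± 0.17 and 2.73 ± 0.08, with Hdac11. Dnmt3b lies on chromosome 2, and with neighbours centred 3 members of this list rose and 6 fell. H2afy2 had 1408, 1401, 1359 and 1438 in wild-type, 72, 94, 76 and 88 in Pkd1-/- and 601, 527, 549 and 476 in Pkd2-/- dishes. H19, an imprinted noncoding RNA, fell by 3.45 ± 0.30 and was under 41 in Pkd2-/- dishes, against 494 to 685 in Pkd1-/- and 1040 to 1326 in wild-type.

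Of 91 cell cycle and replication genes, 16 rose (17.6%) by 0.15 to 0.66 and 2 fell. The median of the list was 0.17 in Pkd1-/- and 0.00 in Pkd2-/- cells. Mki67, the proliferation antigen Ki-67, had 4707, 4582, 5145 and 3461 normalized counts in wild-type, 5796, 7194, 6991 and 7440 in Pkd1-/- and 6671, 6538, 6958 and 8579 in Pkd2-/- dishes. It rose by 0.66 ± 0.10 (limma, adjusted p = 3.41e-05). The mitotic genes Kif11, Kif23, Top2a, Prc1, Ube2c, Tpx2, Bub1, Anln, Cdc25b, Nusap1, Aurka and Aurkb and the replication genes Mcm10, Rrm2 and Pcna rose, whereas Cdkn2b, the inhibitor p15, fell by 0.62 ± 0.06, and Cenpa, a centromeric histone, by 0.27. Centred on neighbours, 13 rose and 1 fell. In the list of p53 targets and apoptosis, 12 of 58 fell: Casp12, Casp4, Bik, Pmaip1, Bmf, Diablo, Birc2, Sesn1, Dapk1, Casp6, Casp2 and Perp. Casp12 had 209, 117, 147 and 157 in wild-type, 5, 19, 9 and 14 in Pkd1-/- and 13, 8, 23 and 7 in Pkd2-/- dishes. Not all of them promote cell death, since Birc2 inhibits caspases, and Htatip2 was among those that rose.

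Amino acid and one-carbon metabolism had 15 of 57 members that rose (26.3%) and 5 that fell (8.77%), with a median of 0.17. Serine and folate enzymes (Psat1, Phgdh, Mthfd2, Mthfd1, Mthfd1l), the cystine transporter subunits Slc7a11 and Slc3a2, the arginine transporter Slc7a1, the polyamine enzymes Odc1 and Srm, and Aldh18a1, Ahcy and Gpt2 were among those that rose. Slc6a9, a glycine transporter, had 140, 177, 170 and 155 normalized counts in wild-type, 252, 264, 248 and 309 in Pkd1-/- and 592, 618, 604 and 641 in Pkd2-/- dishes, and Prodh, proline dehydrogenase, rose by 0.90 ± 0.10. Glul, Mat2b, Slc1a1, Asl and Mthfd2l fell. With neighbours centred, 11 members rose and 4 fell. In the list of unfolded protein and integrated stress responses, 8 of 53 rose, Derl3, Sdf2l1, Dnajb11, Calr, Syvn1, Atf4, Pdia3 and Eif2s1, by 0.23 to 0.83, and Xbp1 and Dnajb1 fell by 0.30 and 0.12. Derl3, which extracts misfolded proteins from the endoplasmic reticulum, had 273, 329, 306 and 366 in wild-type, 447, 447, 442 and 386 in Pkd1-/- and 747, 702, 836 and 688 in Pkd2-/- dishes. The proteasome list had 7 of 37 that rose, Psmc1, Psmd1, Psma7, Psmd11, Psmb7, Psmc3 and Psmd2, by 0.12 to 0.42, and none that fell.

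In glycolysis, Slc16a3, Eno3 and Pdha1 rose and Ldhb, Egln3 and Slc2a1 fell, out of 50. These shares, 6.0% each, were near the 5.2% higher and 6.97% lower of all genes. Ldhb, the lactate dehydrogenase subunit that favours pyruvate, had 1679, 1916, 1821 and 1538 normalized counts in wild-type, 757, 646, 645 and 638 in Pkd1-/- and 218, 229, 228 and 213 in Pkd2-/- dishes. Eno3, an enolase, rose by 0.99 ± 0.09. In lipid metabolism, 2 of 36 cholesterol genes rose and 2 fell (5.56% each), also near those shares. Of 67 fatty acid genes, 6 rose (8.96%) and 7 fell (10.4%). Srebf1, a sterol-regulated activator, rose by 0.39. The desaturases parted: Scd2 rose by 0.62 ± 0.04 and its neighbour on chromosome 19, Scd1, fell by 1.11 ± 0.06. Pank1, which starts coenzyme A synthesis, fell by 2.09 ± 0.09, and Lipa and Npc2, which free and export lysosomal cholesterol, by 0.67 and 0.28. Of 66 antioxidant and detoxification genes, 5 rose, Mt1, Mt2, Srxn1, Aldh3b1 and Gclc, and 10 fell, among them Abcc3 and Akr1c14, by 3.14 ± 0.24. With neighbours centred, 3 rose. Lysosome and autophagy genes fell in 10 of 80 and rose in 2, and Rab and exocyst genes in 10 and 3 of 63.

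Of 49 splicing factors, 6 rose, Rbm38, Srsf2, Qk, Srsf5, Ptbp1 and Srsf6, and Ptbp2, a paralog of Ptbp1, fell by 0.39. Bex4, Bex1 and Tceal9, small X-linked adaptor-like proteins, fell out of 6 tested. In the clustered protocadherins, adhesion proteins whose variable exons share sequence, 5 of 19 fell and Pcdhga1 rose, and reads may be split among them. Among 26 cadherins, catenins and desmosomal genes, Cdh2, Ppl and Ctnna1 rose and Perp and Ctnnb1, beta-catenin, fell.

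In the innate immune lists the shares were near those of all genes (5.2% higher and 6.97% lower): 8.45% of the Toll-like receptor, NF-kappaB and cytokine genes rose and 9.86% fell, and 5.33% and 8.0% of the interferon genes. Tlr1 had 158, 162, 138 and 190 normalized counts in wild-type, 4, 5, 5 and 4 in Pkd1-/- and 21, 21, 16 and 25 in Pkd2-/- dishes, and Tlr6, its neighbour, 35, 47, 41 and 77 in wild-type, 5, 4, 9 and 3 in Pkd1-/- and 13, 7, 3 and 7 in Pkd2-/- dishes. These receptors for bacterial lipopeptides share sequence, so reads may be split between them. Tlr4, Ly96, Ltb, Tnfrsf21 and Tnfaip3 fell as well, and Csf2ra, Tlr5, Ccl5, Tnfrsf12a, Nfkb1 and Relb rose, 7 and 6 of 71. Csf2ra, a cytokine receptor subunit, rose by 1.66 ± 0.15. C3, the central complement protein, fell by 1.75 ± 0.22, from 55 to 96 normalized counts in wild-type to 13 to 31 in the knockouts. In the interferon list, Irf8, Tap2, H2-K1 and H2-D1 rose and Ifit3b, Ifi44, Ifit3, Ifngr1 and Ifngr2 were among those that fell, out of 75. The median of that list was -0.37 in Pkd1-/- and 0.47 in Pkd2-/- cells, which the pooled median of 0.06 does not show.

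The 2 knockouts, compared with each other, often differed in the size of the shared changes, but no more often than over all genes. Of the 1667 separated genes, 930 (55.8%) differed between Pkd2-/- and Pkd1-/- cells at an adjusted p below 0.05 (limma), beside 58.8% of all genes tested. Pkd2-/- cells were further from wild-type in 283 of the 361 such genes that were higher and in 384 of the 569 that were lower. Past 2-fold, Pkd2-/- cells were further in 37 higher genes and Pkd1-/- cells in 23, and in 166 and 63 lower genes. Chromosomes 2 and 19, whose medians were higher in Pkd2-/- than in Pkd1-/- cells, held 262 of the 712 separated genes that were higher. How far these shifts account for the 283 was not tested. The knockouts lay within 25% of each other in 1047 separated genes. Spp1, osteopontin, was at -1.92 in Pkd1-/- and -1.91 in Pkd2-/- cells, and Fgf5, a fibroblast growth factor, at -1.01 and -6.03.

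Pooling also hid opposite changes. In 194 genes the knockouts differed from wild-type by at least 2-fold in opposite directions, 147 higher in Pkd1-/- and 47 higher in Pkd2-/- cells, and 112 of them were not called in the pooled contrast. Ephb3, an ephrin receptor, had 21, 45, 30 and 17 normalized counts in wild-type, 671, 719, 639 and 690 in Pkd1-/- and 0, 0, 0 and 0 in Pkd2-/- dishes, for a pooled difference of -0.07 ± 0.21. Slco4a1, an organic anion transporter, had 232, 282, 243 and 285 in wild-type, 50, 33, 33 and 39 in Pkd1-/- and 2009, 1923, 2019 and 2202 in Pkd2-/- dishes, for 0.12 ± 0.10. Pcdh11x was high in Pkd1-/- dishes alone (637 to 703) and Arhgef3 in Pkd2-/- dishes alone (194 to 197). Col11a1, a fibrillar collagen, and Arhgap28, a GTPase-activating protein, passed the pooled test at -1.81 and -0.64 although Col11a1 was higher than wild-type in Pkd1-/- and Arhgap28 in Pkd2-/- cells.

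Near the deletions, 15 genes other than Pkd1 and Pkd2 were tested within 100 kb, and 3 were separated, beside 12.2% of all genes tested. Spp1 lies beside Pkd2. Pgp, phosphoglycolate phosphatase, and Zfp598, a sensor of collided ribosomes, lie on either side of Pkd1 with other tested genes between. Pgp had 799, 906, 936 and 829 normalized counts in wild-type, 1128, 997, 1057 and 1054 in Pkd1-/- and 1245, 1050, 1338 and 1028 in Pkd2-/- dishes, and Zfp598 rose by 0.30 ± 0.04. Pkd1 itself was lower in Pkd1-/- and higher in Pkd2-/- cells, and Pkd2 was lower in Pkd1-/- cells (-0.54), so neither was separated.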

How the data were processed

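RNA-seq of 12 mIMCD3 libraries, 4 per genotype, was analysed from 1 table of 47642 Ensembl genes. Per the labels the authors used Trim Galore, FastQC, HISAT2, HTSeq, DESeq2 and StringTie, and the study's methods name mm10 (GRCm38). How strand was treated in counting is not given in the sources used here. The deposited values are whole numbers: gene counts that the authors divided by DESeq2 size factors and rounded, treated here as a score and called normalized counts, so no count model was fitted. Groups came from the sample titles, and 0 sample columns were left unused.

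The 13703 genes whose normalized counts averaged 10 or more over all libraries were tested on log2(value + 1) with limma 3.58.1 (R 4.3.3; lmFit, eBayes with a variance trend), with a mean per genotype, equal weight for each knockout and Benjamini-Hochberg adjustment over all genes tested, two-sided, called at an adjusted p below 0.05. A fold change on this scale understates the change of low genes. The script was tested on simulated data. Python 3.11.15 counted separated genes and searched promoters, and gene positions came from GENCODE M21. The members and gene lists were chosen with earlier results of these data known, and so were the tests. Named were Pkd1 and Pkd2, the 15 protein-coding genes that rose and the 15 that fell most by the weaker knockout, up to 2 separated members of each list per direction (more where a list is enumerated), 3 genes per direction that moved oppositely, cell type markers and genes within 100 kb of a deletion. Genes of other kinds, such as those near 0, at the limit of the rule or in chromosome runs, were named after their values were seen. Some genes that meet these rules are not reported here. Precision rests on 4 dishes per genotype. Reads per library were estimated from the normalized value that 1 read is worth, fitted to which whole numbers occur among low values. Alternatives were other pseudocounts, minimum means, scaling, variance settings, thresholds, a replicate block and leaving out each library. Centring on neighbouring genes was chosen after seeing the data.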

Additional observations from a re-analysis of the deposited data

Results flagged for a closer look

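In 26 of 624 groups of 4 dishes (4.17%), 1 dish of a named gene lay further from its neighbours than the 95% critical value of Dixon's test, and chance alone gives about 1 in 20. The values are normalized counts, each given with the range of the other 3 dishes of the genotype. Among wild-type dishes these were Acta1 at 76 in replicate 1 (others 87 to 89), Ddit4 at 2018 in replicate 1 (others 2263 to 2309) and Pik3cg at 130 in replicate 4 (others 92 to 97). In wild-type cells there were also Rasa3 at 5 in replicate 3 (others 26 to 30), Etv5 at 35 in replicate 3 (others 26 to 27) and Dusp14 at 901 in replicate 2 (others 851 to 858). Further wild-type values were Ifit3b at 2529 in replicate 3 (others 2417 to 2432), Gata3 at 176 in replicate 2 (others 236 to 248) and Col11a1 at 409 in replicate 3 (others 335 to 346). Among Pkd1-/- dishes these were Ppl at 5245 in replicate 1 (others 6149 to 6244), Cftr at 6 in replicate 1 (others all at 0) and Zfp9 at 165 in replicate 4 (others 124 to 130). In Pkd1-/- cells there were also Bex4 at 48 in replicate 1 (others 35 to 37), Ldhb at 757 in replicate 1 (others 638 to 646) and Derl3 at 386 in replicate 4 (others 442 to 447). Further Pkd1-/- values were Exoc6 at 2312 in replicate 1 (others 2613 to 2646) and Atp6v1b1 at 437 in replicate 2 (others 528 to 544). Among Pkd2-/- dishes these were Lmnb2 at 1758 in replicate 1 (others 1690 to 1697), Krt19 at 1456 in replicate 2 (others 1392 to 1395) and Wipf1 at 10 in replicate 1 (others 19 to 20). In Pkd2-/- cells there were also Pkia at 417 in replicate 2 (others 301 to 311), Nr4a2 at 2788 in replicate 4 (others 1179 to 1373) and Rpl5 at 14695 in replicate 4 (others 16036 to 16062). Further Pkd2-/- values were Exoc6 at 2739 in replicate 2 (others 2992 to 3026), Ptbp2 at 3390 in replicate 4 (others 3069 to 3106) and Arhgap28 at 378 in replicate 4 (others 307 to 314). Of these, Rasa3 in wild-type and Nr4a2 in Pkd2-/- cells had the values furthest from the others by ratio among genes above 0 in every dish of the group.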

How the results depend on the processing

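Under each alternative run, more separated genes were lower than higher. Calls moved by over 1.5 times with the 8 knockout libraries as 1 group, where 859 genes were higher and 917 lower, since the difference between the knockouts then enters the spread. A gap of at least 25% between the nearest libraries left 83 separated genes higher and 288 lower. At least 2-fold in each knockout was reached by 42 higher and 180 lower genes. With a minimum mean of 50, 190 genes were at least 2-fold lower, fewer genes being tested. Leaving out 1 library gave 2495 to 2925 genes called higher and 2635 to 2991 lower, 730 to 920 and 978 to 1150 separated, 76 to 91 and 293 to 309 of these past 2-fold, and 908 to 1141 separated genes that differed between the knockouts. With a replicate block, 3026 genes were called higher and 3076 lower, 76 and 293 were past 2-fold, and 935 separated genes differed between the knockouts. The numbers paired the samples weakly if at all: over 12 pairs of same-numbered libraries the correlation of deviations ran from -0.07 to 0.2. In 2 pairs it was over 0.1, and 4 libraries correlated best with their own number. Replicate 4 did so in each comparison of genotypes, at 0.09 (wild-type and Pkd1-/-), 0.2 (wild-type and Pkd2-/-) and 0.17 (the 2 knockouts). Whether dishes numbered 4 shared a batch was not tested. Of 3978 values of 221 single genes under the alternatives, 3909 kept direction and side of the threshold, 56 fell short of it, 12 passed it newly, and 1 reversed. That was Arhgap28, at 0.33 with a pseudocount of 5 and -0.64 with 1, whose Pkd1-/- dishes are at 0. Low counts limit genes near 0, where the fitted difference depends on the pseudocount.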
